A study of Mus musculus with 21 samples.

Results

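The MYC, MAX and MXD network was examined as 10 genes, chosen by symbol from the 24421 genes of the deposited tables: Myc, Mycn, Mycl, Max, Mxd1, Mxd3, Mxd4, Mxi1, Mnt and Mga. All 10 passed the filter on low counts that left 12786 genes for testing. MYC proteins are short-lived transcription factors that bind DNA as pairs with MAX, mostly at the sequence called the E-box, and activate genes for growth, ribosome production and metabolism. MXD proteins (Mxi1 encodes another member of this family) and MNT also pair with MAX at E-boxes but recruit the SIN3 and histone deacetylase corepressor, and MGA brings MAX into a Polycomb complex. In B cell precursors, Myc is expressed in the dividing cells that respond to interleukin-7 and to the pre-B cell receptor.

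Poly(A) RNA sequencing covered 6 libraries of primary bone marrow B cell precursors from 53BP1-/- C57BL/6 mice, which lack a DNA repair factor. All 3 groups were kept in interleukin-7 and transduced with a MIGR1 retrovirus: the empty vector (EV), human BCR-ABL1 p210, the fusion kinase of leukemia, or mouse C-MYC. Each group had 2 libraries from cells harvested between days 7 and 9 after transduction, with dead cells removed. Because all cells lacked 53BP1, no wild-type group stood beside them. By the study's methods the duplicates were separate experiments. The sources used here do not say whether they came from separate mice, so the p-values measure the spread between these samples only. Totals ran from 20687092 to 24095955 counts per library. Levels of a gene across libraries are given as CPM, library-scaled counts with TMM factors. A gene was called where the p of edgeR's quasi-likelihood test, adjusted by Benjamini-Hochberg over all tested genes, was below 0.05. The value after ± beside a log2 fold change is its standard error.

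Markers checked what the cells were. All 8 B cell precursor markers were detected in every library. Their summed level was 4727 and 5274 CPM in EV, 4874 and 5421 CPM in BCR-ABL1 and 2732 and 3253 CPM in C-MYC. In C-MYC, 7 of 8 were called lower than EV (24.5% of all tested genes). In BCR-ABL1, 2 of 8 were called lower than EV (12.0%). They were Il7r (log2 fold change -1.82 ± 0.17, adjusted p = 0.00091) and Cd79b (-0.58 ± 0.16, adjusted p = 0.0457). EV also held RNA of other cells. The 8 myeloid markers summed to 1107 and 1257 CPM in EV against 139 to 327 CPM in the 4 oncogene libraries. With either oncogene, 8 of 8 were called lower than EV, beside 12.0% of all tested genes for BCR-ABL1 and 24.5% for C-MYC. The 5 T and NK cell markers summed to 81.2 and 112 CPM in EV and at most 5.65 CPM elsewhere. The 5 stromal markers summed to 103 and 157 CPM in EV and at most 6.02 CPM elsewhere. The 5 erythroid markers summed to at most 2.43 CPM. Hba-a1 and Hbb-b1 had 0 counts in every library, although the deposited FPKM, a length-scaled level, of Hbb-b1 was 0.236 in EV replicate 1. Only Alas2 and Gata1 could be tested. Alas2 was not called against EV, and Gata1, with a mean of 0.958 CPM in EV, was lower with either oncogene (adjusted p = 0.0301 for BCR-ABL1 and 0.00692 for C-MYC). These values move with every comparison against EV, and their part in the changes of the network genes was not tested. In bulk RNA, fewer cells of a type and less RNA per cell cannot be told apart. The comparison of C-MYC with BCR-ABL1 has no EV library on either side, but the EV libraries stay in the model and lend their spread to its test. It called 1468 genes higher and 1523 lower, and a model of only the 4 libraries compared called 2271 and 2267. In the comparison within the full model, 5 of 8 B cell precursor markers were lower in C-MYC (11.9% of all genes) and 2 of 8 myeloid markers higher (11.5%).

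The network's own promoters are shown because several of these genes carry the site that their proteins bind. RefSeq promoter windows of 300 bases on GRCm38.p6 (250 before the transcript start and 50 after it) matched 9 of the 10 genes with 11 entries, 3 of them for Mxi1, and Myc had none. The E-box CACGTG, which reads the same on both strands, stood in the windows of Max, Mxd4 and Mnt. Of all 32851 promoter windows, 7.15% held it. In the lines that follow, the E-box is in capitals and all bases are read 5′ to 3′ on the gene's strand.
Max, chr12:76962239-76962291, minus strand: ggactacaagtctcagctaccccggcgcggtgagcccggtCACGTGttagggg
Mxd4, chr5:34187884-34187960, minus strand: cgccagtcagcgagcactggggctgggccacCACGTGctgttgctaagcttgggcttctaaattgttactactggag
Mnt, chr11:74830761-74830846, plus strand: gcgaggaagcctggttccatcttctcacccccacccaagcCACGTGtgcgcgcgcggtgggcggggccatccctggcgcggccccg

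All offsets here count from RefSeq starts. The E-box began 3 bases before the start of Max and spanned it, 123 bases before that of Mnt and 219 before that of Mxd4. The gene coordinates given below are those of the GENCODE annotation, whose starts differ for some genes. By GENCODE, Max starts at 76962201 on the minus strand, so its whole printed window lies upstream. Mycl starts at 122995652 there, so its RefSeq window lies inside the gene. The variant CACGCG, or its reverse complement CGCGTG, began 20 bases before the start of Mycl and 21 before that of Mga, and 9.27% of all windows held it. The windows of Mycn, Mxd1, Mxd3 and Mxi1 held neither. The window of Mycn is shown for another reason. It held the letters TTTGGCGC, a form of the site of E2F cell cycle factors, at 183 and 168 bases before the start, and 0.514% of all windows held them on either strand. They are in capitals in the next line.
Mycn, chr12:12941957-12942059, minus strand: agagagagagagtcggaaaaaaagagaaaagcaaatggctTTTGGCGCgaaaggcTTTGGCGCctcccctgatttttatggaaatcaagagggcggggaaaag

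No window of the 9 genes held TTTCCCGC (another E2F form, in 1.07% of all windows) or TTCNNNGAA (the STAT form, in 8.3%). Such matches describe letters only.

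The 2 oncogenes left different MYC family patterns. With BCR-ABL1, both Myc and Mycn were higher than in EV, whereas with C-MYC, Mycn fell. The Myc transcript rose with C-MYC, but its reads there include the vector's transcript, so this rise only checks the label. Among the repressors, Mxd1, Mxd3 and Mxd4 fell with C-MYC and Mxi1 rose, and Max and Mga were called in no comparison. The plots of levels by library and of fold changes show these patterns.

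**Figure D1:**
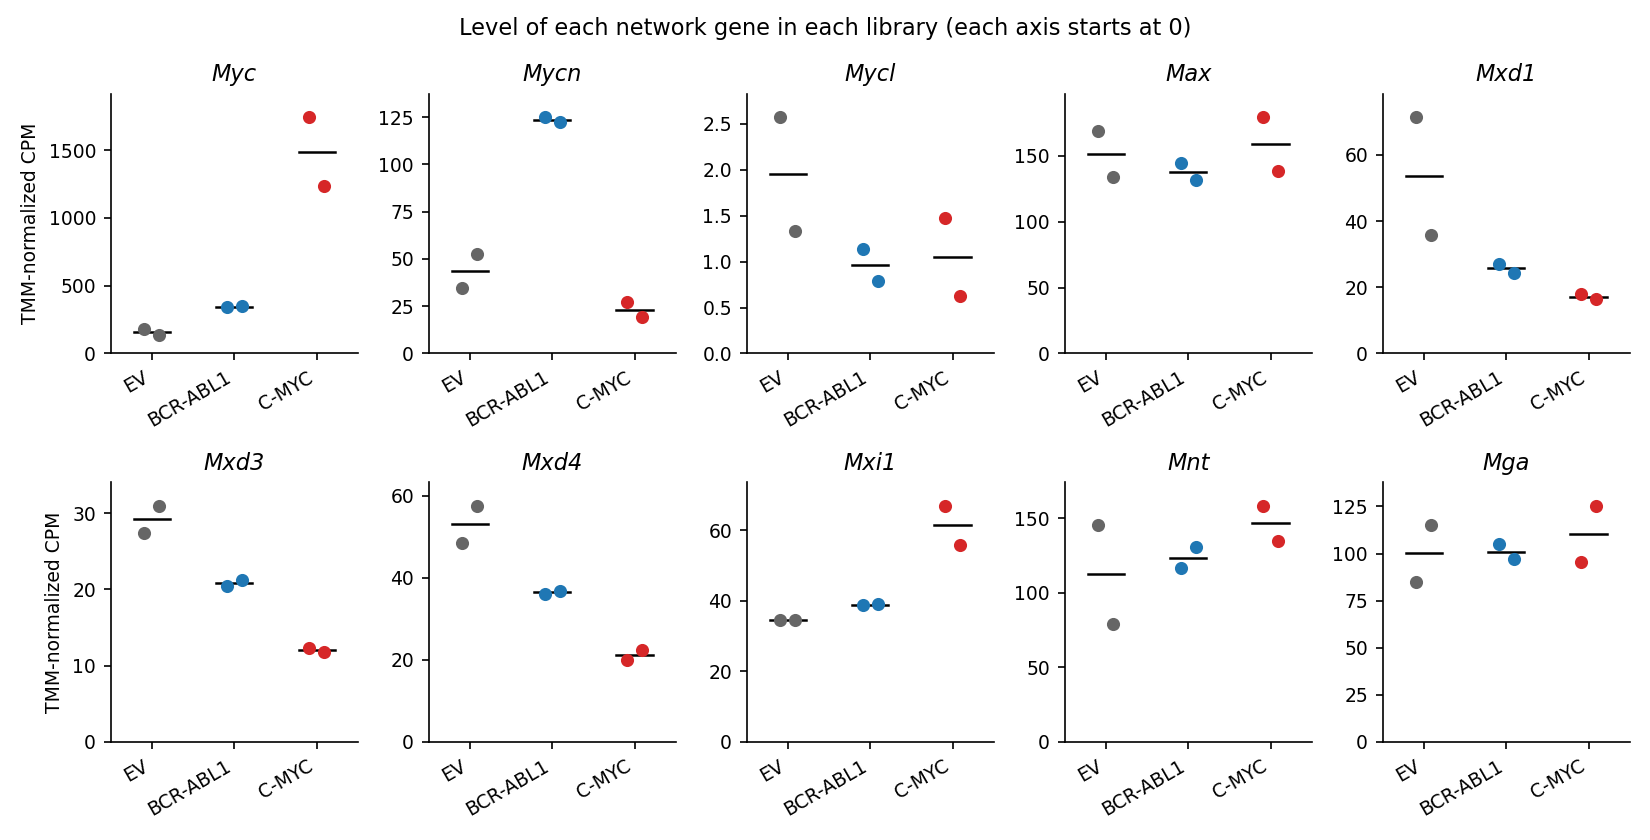
TMM-normalized CPM of the 10 network genes (vertical axes, each from 0) in the 2 libraries of EV, BCR-ABL1 and C-MYC, with 1 point a library and a line at the mean. Myc and Mycn part in C-MYC, where Myc, with the vector's transcript included, reached 1233 and 1743 CPM and Mycn fell to 19.5 and 27.0 CPM.

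Myc, on chromosome 15 (GRCm38, 61985391 to 61990374, plus strand), is the founding member of the family. It stood at 181 and 137 CPM in EV, at 343 and 348 CPM in BCR-ABL1, and at 1743 and 1233 CPM in C-MYC. The 3 groups did not overlap. The vector carries mouse C-MYC, so the reads in C-MYC cells include the vector's transcript, and the 9.36-fold level against EV (log2 fold change 3.23 ± 0.20, adjusted p = 0.000175) checks the label and does not measure the chromosomal gene. In BCR-ABL1, whose vector encodes no MYC, the Myc transcript was 2.18-fold higher than in EV (log2 fold change 1.12 ± 0.19, 95% interval 0.69 to 1.55, adjusted p = 0.00681). Of the 650 genes called higher in that comparison, 164 had a larger change. The call was kept under each of the 14 alternative settings.

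Mycn, on chromosome 12 (12936093 to 12941914, minus strand), encodes N-MYC, which is used in early lymphoid and neural progenitors. It had 34.6 and 52.5 CPM in EV, 125 and 122 CPM in BCR-ABL1, and 27.0 and 19.5 CPM in C-MYC, again without overlap between groups. The rise with BCR-ABL1 was 2.84-fold (log2 fold change 1.50 ± 0.22, 95% interval 0.99 to 2.02, adjusted p = 0.00448), and 108 of the 650 genes called higher changed more. With C-MYC, Mycn was 1.88-fold lower than in EV (log2 fold change -0.91 ± 0.23, adjusted p = 0.0139), a call lost without C-MYC replicate 2 (log2 fold change -0.69). Of the 3132 genes called lower there, 2029 changed more. The direct comparison gave the widest separation, with Mycn 5.32-fold lower in C-MYC than in BCR-ABL1 (log2 fold change -2.41 ± 0.23, adjusted p = 0.000955), and 155 of the 1523 genes called lower there changed more. This difference and the rise with BCR-ABL1 were called under all 14 alternatives.

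Mycl, on chromosome 4 (122995652 to 123002485, plus strand), encodes L-MYC and was close to silent, with 14 to 55 counts per library. Its levels were 2.57 and 1.34 CPM in EV, 1.14 and 0.789 CPM in BCR-ABL1, and 1.47 and 0.629 CPM in C-MYC. C-MYC overlapped both other groups, and no comparison was called. The intervals were wide, from -2.22 to 0.18 on the log2 scale for BCR-ABL1 against EV, so a change of 2-fold was not detectable at this depth.

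Max, on chromosome 12 (76937269 to 76962201, minus strand), encodes the partner that MYC, MXD, MNT and MGA proteins share. It had 168 and 134 CPM in EV, 144 and 131 CPM in BCR-ABL1, and 179 and 139 CPM in C-MYC, and all 3 groups overlapped. The log2 fold change was -0.13 ± 0.16 for BCR-ABL1 and 0.07 ± 0.16 for C-MYC, each against EV. The second of these had a 95% interval from -0.30 to 0.45, while the Myc transcript, with the vector's included, rose 9.36-fold in the same libraries.

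**Figure D2:**
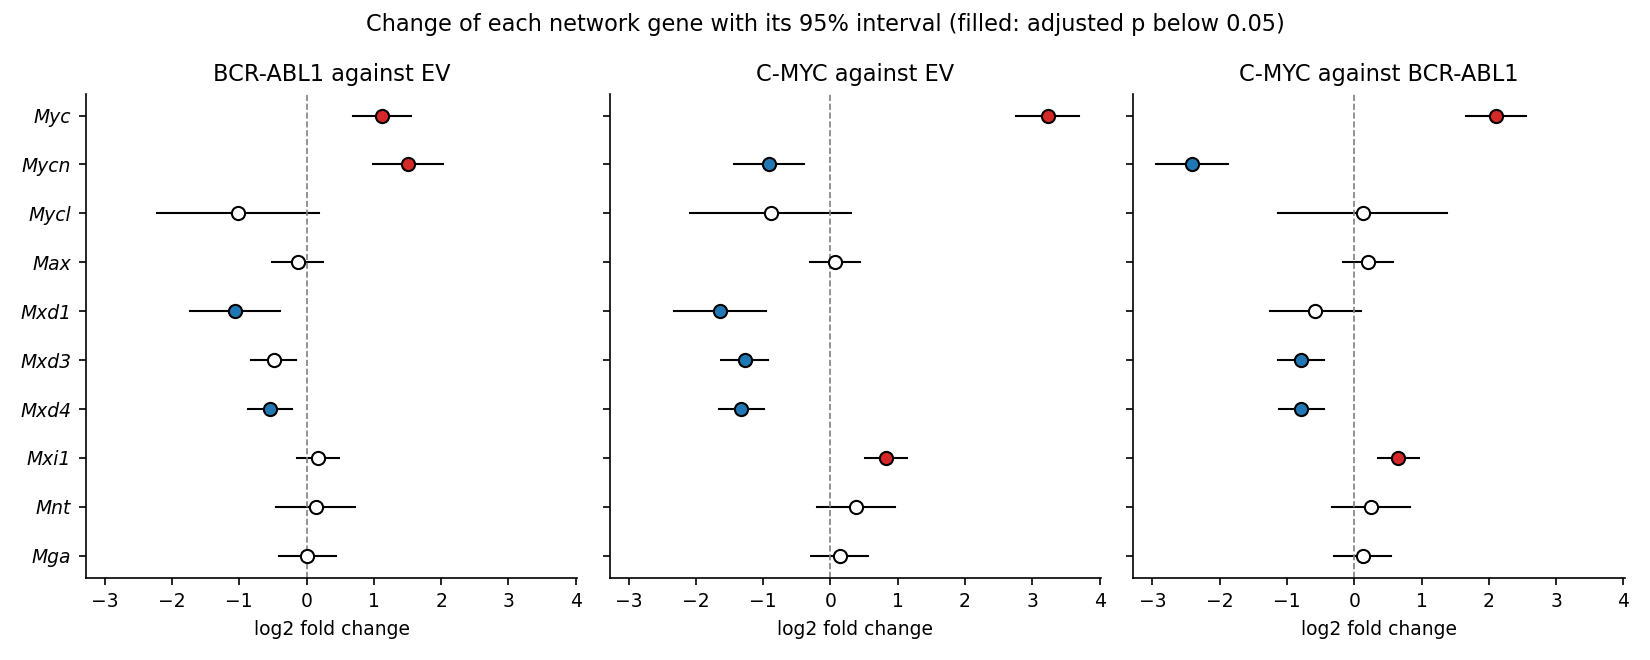
Log2 fold change (horizontal axes) of the 10 network genes in the 3 comparisons, with the 95% interval as a line; red points were called higher, blue points lower and white points neither. Mycn lies on opposite sides of 0 in the first and second panels, and Mxd1, Mxd3 and Mxd4 lie below 0 in all 3.

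Of the 10 genes, 2 were called higher and 2 lower in BCR-ABL1 against EV, where 5.08% and 12.0% of all tested genes were called. In C-MYC against EV, 2 were higher (18.6% of all genes) and 4 lower (24.5%), and in C-MYC against BCR-ABL1, 2 were higher (11.5%) and 3 lower (11.9%). The Myc reads in C-MYC include the vector's transcript, so the calls of Myc there only check the label. Without Myc, 1 of 9 was higher in each comparison with C-MYC. Both comparisons with EV share the EV libraries. With 10 genes, these counts describe the network and set it apart from no other list. The count of 4 in BCR-ABL1 fell to 2 without either BCR-ABL1 library or either C-MYC library, which lend their spread to the test. The count of 5 in C-MYC against BCR-ABL1 fell to 2 without BCR-ABL1 replicate 1, BCR-ABL1 replicate 2 or C-MYC replicate 1.

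Mxd1, on chromosome 6 (86647042 to 86669161, minus strand), encodes a MAX-bound repressor that appears as blood cells stop dividing and mature. It had 71.4 and 35.9 CPM in EV, 27.1 and 24.3 CPM in BCR-ABL1, and 17.9 and 16.4 CPM in C-MYC. The groups did not overlap, but the EV libraries lay far apart. The myeloid markers parted between EV replicates 1 and 2 as well: S100a8 (202 and 51.1 CPM), S100a9 (314 and 109), Cd14 (35.5 and 13.2), Elane (3.74 and 1.42), Itgam (113 and 89.6) and Mpo (9.58 and 7.98) were higher in replicate 1, like Mxd1, while Lyz2 (496 and 690 CPM) and Csf1r (82.5 and 145) were lower. Their part in the Mxd1 values was not tested. Mxd1 was 3.12-fold lower in C-MYC than in EV (log2 fold change -1.64 ± 0.29, adjusted p = 0.00355), which held under all 14 alternatives. In BCR-ABL1 against EV, 1238 of the 1530 genes called lower changed more than Mxd1. Its 2.09-fold lower level there (log2 fold change -1.06 ± 0.29, adjusted p = 0.0420) was lost under 8 of 14. It stood at a log2 fold change of -0.48 without EV replicate 1 (adjusted p = 0.0573), at adjusted p = 0.147 and 0.224 without BCR-ABL1 replicate 1 and 2, and at 0.0798 and 0.0792 without C-MYC replicate 1 and 2. C-MYC and BCR-ABL1 did not differ by the test (log2 fold change -0.58, 95% interval -1.26 to 0.10, adjusted p = 0.189), but without EV replicate 1 or 2 the same difference was called (adjusted p = 0.00972 and 0.00752).

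Mxd3, on chromosome 13 (55325168 to 55329823, minus strand), encodes the family member that is found in dividing cells. It had 27.4 and 31.0 CPM in EV, 20.4 and 21.2 CPM in BCR-ABL1, and 12.4 and 11.8 CPM in C-MYC, a stepwise order without overlap. Mxd3 was 2.42-fold lower in C-MYC than in EV (log2 fold change -1.28 ± 0.15, adjusted p = 0.000675) and 1.73-fold lower than in BCR-ABL1 (-0.79 ± 0.15, adjusted p = 0.00940). BCR-ABL1 against EV missed the threshold (-0.49 ± 0.15, adjusted p = 0.0578) and passed it without EV replicate 1 (-0.57, adjusted p = 0.0324). The difference between the oncogenes lost its call without BCR-ABL1 replicate 1 or 2 (adjusted p = 0.0825 and 0.0747) or C-MYC replicate 1 or 2 (adjusted p = 0.0528 and 0.0713). Mxd3 overlaps Prelid1 on the opposite strand, and with the strand setting of the counting not given, reads of the overlap may belong to either gene.

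Mxd4, on chromosome 5 (34173883 to 34187720, minus strand), is a further MXD repressor, with the E-box shown above. It followed the same order, with 48.4 and 57.6 CPM in EV, 36.2 and 36.8 CPM in BCR-ABL1, and 19.9 and 22.4 CPM in C-MYC. The C-MYC level was 2.51-fold lower than EV (log2 fold change -1.33 ± 0.14, adjusted p = 0.000537) and 1.73-fold lower than BCR-ABL1 (-0.79 ± 0.14, adjusted p = 0.00833). The second call was lost without BCR-ABL1 replicate 1 or 2 (adjusted p = 0.0759 and 0.0606) or C-MYC replicate 1 (0.0669). The smaller step from EV to BCR-ABL1 (-0.54 ± 0.14, adjusted p = 0.0374) was exceeded by 1493 of the 1530 genes called lower. It was lost under 7 of 14 alternatives, among them leaving out EV replicate 2 (-0.41), either BCR-ABL1 library or either C-MYC library.

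Mxi1, on chromosome 19 (53310518 to 53375810, plus strand), encodes a repressor of the same family, also known as MXD2, and moved the other way. Its levels were 34.6 and 34.7 CPM in EV, 38.7 and 39.1 CPM in BCR-ABL1, and 67.0 and 55.8 CPM in C-MYC. It was 1.77-fold higher in C-MYC than in EV (log2 fold change 0.83 ± 0.13, adjusted p = 0.00238), which held under all 14 alternatives. C-MYC also exceeded BCR-ABL1 (0.66 ± 0.13, adjusted p = 0.0122), without a call when BCR-ABL1 replicate 1 or 2 (0.122 and 0.0842) or C-MYC replicate 1 (0.0885) was left out. BCR-ABL1 and EV differed by 0.17 on the log2 scale, with a 95% interval from -0.14 to 0.48.

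Mnt, on chromosome 11 (74830920 to 74845725, plus strand), encodes the repressor that is present in dividing and resting cells alike. It had 146 and 79.3 CPM in EV, 116 and 131 CPM in BCR-ABL1, and 158 and 135 CPM in C-MYC, so that both groups overlapped EV. Its log2 fold change against EV was 0.14 ± 0.25 with BCR-ABL1 and 0.38 ± 0.25 with C-MYC (adjusted p = 0.765 and 0.256). Without EV replicate 1, both were called higher, at 0.64 (adjusted p = 0.0166) and 0.89 (adjusted p = 0.00199), and without EV replicate 2 the values were -0.24 for BCR-ABL1 and 0.01 for C-MYC (adjusted p = 0.261 and 0.958).

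Mga, on chromosome 2 (119897228 to 119969581, plus strand), encodes a very large MAX partner of a Polycomb complex. It had 85.1 and 115 CPM in EV, 105 and 96.9 CPM in BCR-ABL1, and 95.4 and 125 CPM in C-MYC. The groups overlapped throughout, and its log2 fold changes were 0.01 to 0.14 with standard errors of 0.18.

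The balance between activators and repressors was described per length, with no test. Counts per kilobase used the exons of the GENCODE annotation of GRCm38, and the deposited FPKM gave a second scale. On the first, Myc was the most abundant member in every library, with group means of 58.5, 127 and 548 CPM per kilobase in EV, BCR-ABL1 and C-MYC, ahead of Max at 42.0, 38.3 and 44.2. In EV, Mnt (24.3), Mycn (13.2), Mxd3 (12.3) and Mxd1 (7.58) followed, then Mga (6.53), Mxd4 (6.25) and Mxi1 (5.08), with Mycl last (0.484 CPM per kilobase). Within this order, the libraries of Mycn and Mxd3, of Mxd1 and Mga, and of Mga and Mxd4 overlapped. In BCR-ABL1, Mycn at 37.5 CPM per kilobase overlapped Max. In C-MYC, Mxi1 (9.00) stood next below Mnt (31.7), and Mxd4 (2.49) and Mxd1 (2.43) were indistinguishable above Mycl (0.260).

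**Figure D3:**
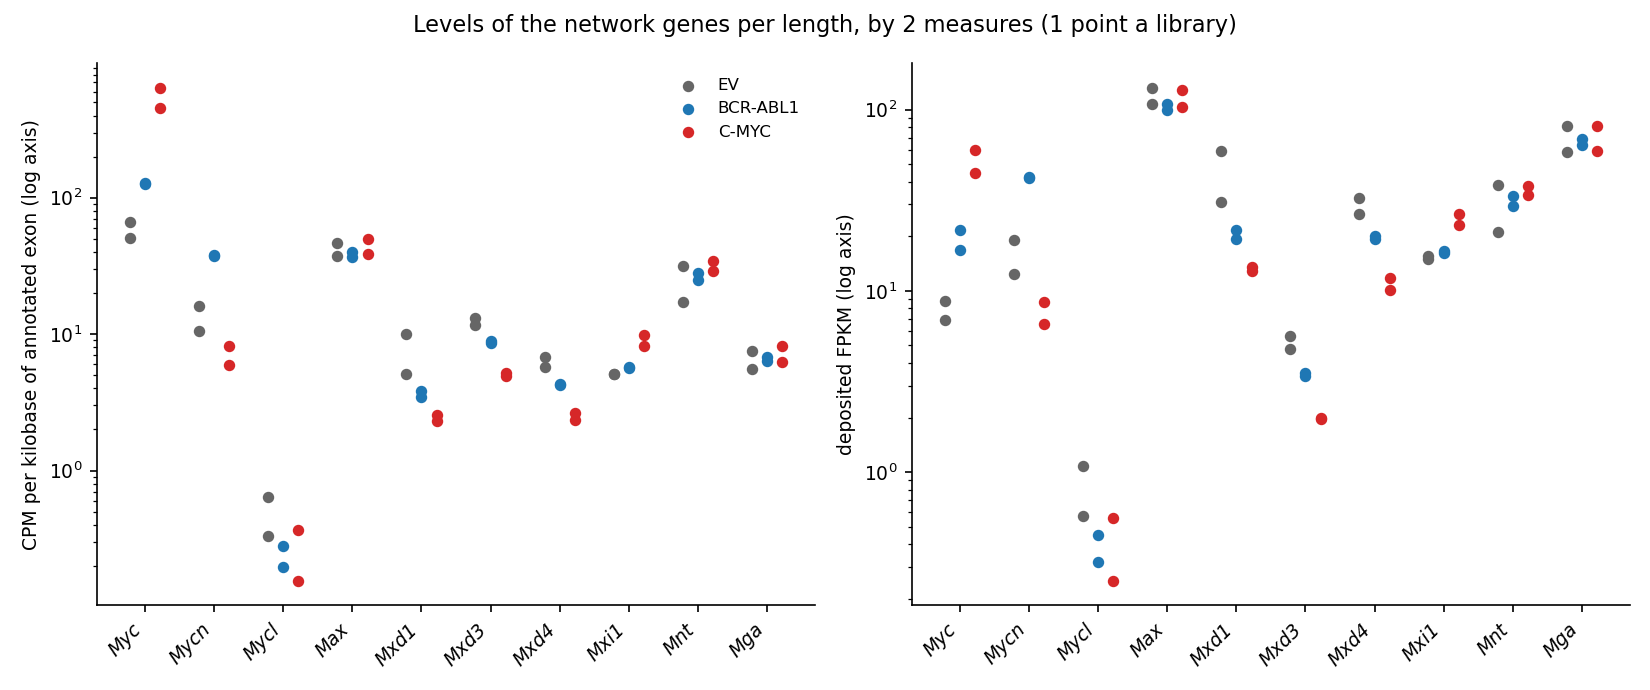
Levels per length of the 10 network genes on a log axis, as CPM per kilobase of annotated exon (left) and as deposited FPKM (right), with 1 point a library in grey for EV, blue for BCR-ABL1 and red for C-MYC. Mycl is lowest on both scales, whereas Myc leads on the left and Max on the right.

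The deposited FPKM put these genes in another order. In EV, Max led with a mean of 120 FPKM, followed by Mga (69.6 FPKM) and Mxd1 (45.1 FPKM), and Myc had 7.84 FPKM. Myc reached 19.2 FPKM in BCR-ABL1 and 52.3 FPKM in C-MYC. Spearman's rho between the scales over the 10 genes was 0.285 in EV, 0.455 with BCR-ABL1 and 0.794 with C-MYC. Orders between genes therefore depend on the scale. On both scales Mycl was lowest and Max exceeded Mnt and every MXD gene.

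The ratio of Myc to the summed MXD and Mnt transcripts rose in the same order on both scales. Per kilobase, EV had a ratio of 1.06 ± 0.0197, BCR-ABL1 of 2.59 ± 0.0921 and C-MYC of 10.7 ± 1.58 (SD, n = 2). By FPKM it was 0.0631 ± 0.00304, 0.209 ± 0.0322 and 0.599 ± 0.0909. The numerator in C-MYC includes the vector's transcript. The summed repressors themselves were 55.5 ± 11.9, 49.1 ± 2.25 and 50.7 ± 4.92 CPM per kilobase, and the libraries overlapped. By FPKM they were 125 ± 27.4, 91.5 ± 2.03 and 86.9 ± 4.96, with both EV libraries above the rest.

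The make-up of that sum was described by shares. The share of Mnt in the summed CPM per kilobase was 42.8 ± 9.12% for EV (SD, n = 2), rising to 54.3 ± 1.99% with BCR-ABL1 and 62.4 ± 1.11% with C-MYC. Mxi1 went from 9.36 ± 2.02% to 11.6 ± 0.437% and 17.7 ± 0.561%. Mxd3 went from 22.9 ± 6.79% to 17.9 ± 0.335% and 10.1 ± 0.625%, and Mxd1 from 13.3 ± 3.56% to 7.42 ± 0.921% and 4.80 ± 0.162%. For Mxd3 the step from EV to BCR-ABL1 was not separate, with 18.1% and 27.7% in EV against 18.1% and 17.7% in BCR-ABL1, while C-MYC lay below both. The mean FPKM shares had the same order for each of these genes, with Mnt at 23.3%, 34.3% and 41.3%. Of the MYC family's CPM per kilobase, Mycn made up 18.7 ± 7.35% in EV. Its share was 22.7 ± 0.438% with BCR-ABL1 and 1.27 ± 0.0190% with C-MYC, where the vector's Myc is part of the total. By FPKM the shares were 63.7 ± 11.6%, 68.4 ± 3.87% and 12.7 ± 0.156%, so which of Myc and Mycn was the more abundant in EV and BCR-ABL1 depends on the scale.

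Genes that act with the network were then counted in lists. Among all tested genes, 18.6% were called higher and 24.5% lower in C-MYC against EV, and 5.08% and 12.0% in BCR-ABL1 against EV. The SIN3 corepressor, which MXD and MNT proteins recruit, had 2 genes higher and 1 lower of 7 in C-MYC against EV, near those shares. Sap30 rose (log2 fold change 0.77 ± 0.14) as did the deacetylase Hdac2 (0.57 ± 0.15), the scaffold Sin3b fell (-0.36 ± 0.11), and Sap18 stood at 0.17 ± 0.16. In BCR-ABL1 against EV, 0 of 7 were called. The MLX arm, a parallel network that senses glucose, had Mlxip 2.11-fold lower in C-MYC than in EV (adjusted p = 0.00305) and Mlx at -0.05 ± 0.13, while Mlxipl was too low to test.

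The Polycomb complex of MGA had 4 of 8 genes higher in C-MYC against EV (18.6% of all genes), and the list median was 0.43 on the log2 scale. They were Pcgf6, its defining subunit (2.75-fold, log2 fold change 1.46 ± 0.22, adjusted p = 0.00192), Tfdp1 (0.84 ± 0.16), E2f6 (0.98 ± 0.20) and L3mbtl2 (0.56 ± 0.13). Pcgf6 had 10.0 and 13.2 CPM in EV, 13.5 and 18.7 CPM in BCR-ABL1, and 29.1 and 35.0 CPM in C-MYC. The MYC cofactors, several of which modify or remodel chromatin, had 4 of 9 higher beside the same 18.6%. These were Ruvbl2 (1.30 ± 0.15), Wdr5 (0.77 ± 0.10), Ruvbl1 (1.13 ± 0.15) and the acetyltransferase Kat2a (0.91 ± 0.14). Of the 9, only Kat2a was called in BCR-ABL1 against EV (0.48 ± 0.14, adjusted p = 0.0493). Of 8 factors that set MYC protein turnover, 4 were higher in C-MYC (again beside 18.6%), among them the deubiquitinases Usp28 (0.56 ± 0.13) and Usp36 (0.64 ± 0.18) and the ligase subunit Skp2 (0.65 ± 0.18). In BCR-ABL1, 0 of 8 were called.

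**Figure D4:**
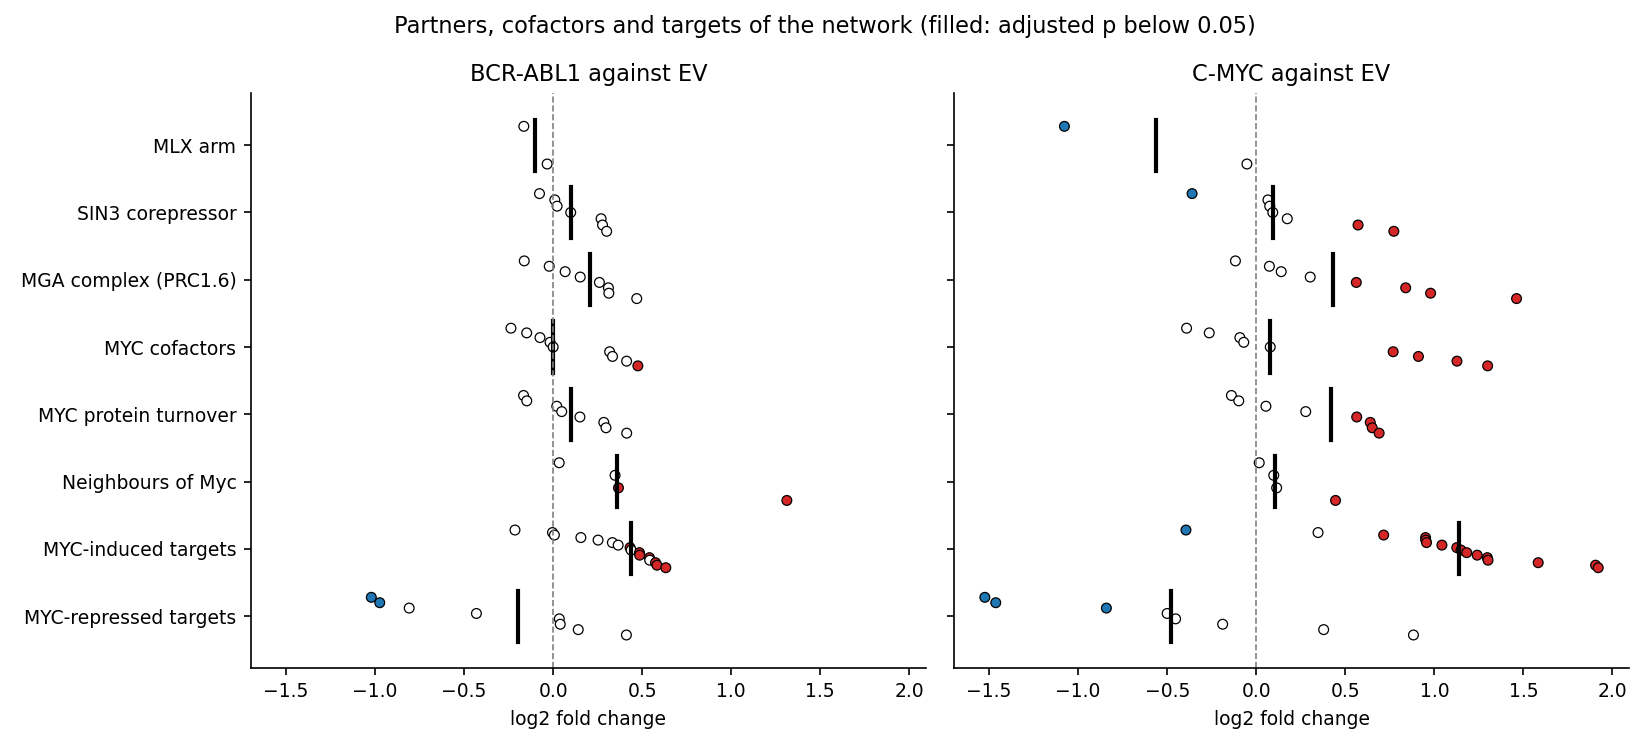
Log2 fold change (horizontal axes) of each tested gene in 8 lists of partners, cofactors, neighbours and targets, for BCR-ABL1 against EV (left) and C-MYC against EV (right); red was called higher, blue lower, white neither, and the black bar is the list's median. The MYC-induced targets have medians of 0.44 and 1.14.

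Textbook targets of MYC gave the largest list. Of 16 MYC-induced targets, 14 were higher in C-MYC than in EV (18.6% of all genes), and the median of the 16 was 1.14 on the log2 scale beside -0.08 over all tested genes. Npm1, a nucleolar chaperone, had 1428 and 1693 CPM in EV, 2261 and 2415 CPM in BCR-ABL1, and 4735 and 4615 CPM in C-MYC. Srm, for spermidine synthesis, rose 3.78-fold (log2 fold change 1.92 ± 0.15), the mitochondrial chaperone Hspd1 3.75-fold (1.90 ± 0.17) and the nucleolar protein Ncl 2.46-fold (1.30 ± 0.11). The exceptions, chosen after their values were seen, were cyclin D2 (Ccnd2), which was lower (-0.39 ± 0.13, adjusted p = 0.0366), and the transferrin receptor Tfrc (0.35 ± 0.31, adjusted p = 0.393).

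In BCR-ABL1 against EV, 7 of these 16 were higher (5.08% of all genes) and 0 lower (12.0%), with a median of 0.44 beside 0.00 over all genes. The 7 were Npm1 (0.58 ± 0.11), Ncl (0.54 ± 0.11), Srm (0.57 ± 0.15), Hspd1 (0.63 ± 0.17), Nme1 (0.48 ± 0.11), Pa2g4 (0.49 ± 0.12) and the kinase gene Cdk4 (0.43 ± 0.10). The direct comparison put 13 of 16 higher in C-MYC than in BCR-ABL1 (11.5% of all genes), with a median of 0.77.

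Of 8 MYC-repressed targets, 3 were lower and 0 higher in C-MYC against EV, where 24.5% of all genes were lower, so the count is near the background. They were the stress gene Gadd45a (-1.46 ± 0.21, adjusted p = 0.00159) and the cell cycle inhibitors Cdkn1b (-0.84 ± 0.14, adjusted p = 0.00294) and Cdkn2b (-1.52 ± 0.38, adjusted p = 0.0146), the last with 11 to 54 counts per library. Ndrg2 stood at 0.88 ± 0.31 (adjusted p = 0.0505). In BCR-ABL1, Gadd45a (-0.97 ± 0.21) and Ndrg1 (-1.02 ± 0.21) were lower, while Cdkn1b was at 0.03 ± 0.14. Cdkn1b and Cdkn2b were lower in C-MYC than in BCR-ABL1 (-0.88 ± 0.14 and -1.94 ± 0.38), and Ndrg1 and Ndrg2 were higher (0.83 ± 0.21 and 1.31 ± 0.32).

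The count over all 8 lists in BCR-ABL1 against EV was 12 of 62 tested genes. Of these, 10 were higher and 2 lower, beside 5.08% and 12.0% of all tested genes. The count fell without either BCR-ABL1 library and rose without EV replicate 2. In C-MYC against EV it was 35 of 62, with 29 higher and 6 lower, beside 18.6% and 24.5%. Leaving out single libraries moved this count less. Between the oncogenes it was 27 of 62, with 23 higher and 4 lower, beside 11.5% and 11.9%. It fell without either BCR-ABL1 library or either C-MYC library.

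The neighbours of Myc on chromosome 15 were read because enhancers of Myc are known to lie far from it. Pvt1, the noncoding gene 47.6 kb away, had 7.81 and 9.53 CPM in EV and 10.1 and 11.9 CPM in BCR-ABL1, a log2 fold change of 0.35 ± 0.21 (adjusted p = 0.304). In C-MYC it stood at 0.02 ± 0.21 against EV. Fam84b, on the other side of Myc at 1131.6 kb, had 21.6 and 21.0 CPM in EV, 49.3 and 56.4 CPM in BCR-ABL1, and 29.0 and 29.0 CPM in C-MYC. It was 2.48-fold higher in BCR-ABL1 than in EV (1.31 ± 0.13, adjusted p = 0.00106) and 1.36-fold higher in C-MYC (adjusted p = 0.0286). Fam49b, at 1938.7 kb, rose with BCR-ABL1 (0.37 ± 0.09, adjusted p = 0.0324), and Asap1, at 2096.5 kb, stood at 0.03 ± 0.10.

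Across the 6 libraries, the genes whose log2 CPM followed Myc most closely among 10622 were Cirh1a, Phb2 and Pes1, each with Pearson's r of 0.999. Those most like Mxd1 were Irgm1 (0.999), Tap1 (0.998) and Trim21 (0.998). The points are 3 groups of 2 libraries, so these values describe group differences, and the Myc values in C-MYC include the vector.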

How the data were processed

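The 6 RNA-seq libraries of a series of 21 samples were used, grouped by the sample labels. The other samples were not analysed here. Per the submitters' processing notes and the study's methods, the authors aligned reads to GRCm38/mm10 with STAR 2.5.0 and UCSC known genes. They deposited whole-number counts per gene symbol without normalization, and FPKM values from StringTie 1.3.0. The counting program, its strand setting and the way FPKM of transcripts were joined by symbol are not given in the sources used here. Both tables held 0 columns of other samples.

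The counts were fitted with edgeR 4.0.16 (R 4.3.3) on all 6 libraries in 1 model without a covariate, with filterByExpr by group, TMM and the quasi-likelihood test. P-values were adjusted by Benjamini-Hochberg over the 12786 genes tested. The standard error is the absolute log2 fold change over the square root of F, and intervals are 95%. Replicate counts differed beyond sampling noise, with chi-square per degree of freedom of 10.7 to 45.6 in the 3 groups. The common biological coefficient of variation was 0.151, so for genes with many counts the spread between replicates limits precision more than depth. This need not hold for genes with few counts, such as Mycl at 14 to 55 per library. CPM per kilobase used summed GENCODE M21 exon lengths. Promoter letters came from RefSeq. The test was checked on simulated counts. Python 3.11.15, pandas 2.3.3 and matplotlib 3.10.9 were used for the rest.

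The members and the lists were chosen with earlier results of these data known. Named genes are the 10 members and, of each list, up to 4 genes with the smallest adjusted p in C-MYC against EV and any other called in BCR-ABL1 against EV. Resemblance to Myc and Mxd1 was ranked among tested genes that averaged 50 counts or more. Ccnd2, Tfrc and the overlapping gene Prelid1 stand outside this rule, as do the B cell precursor, myeloid and erythroid markers named. Some genes that the rule selects are not reported here. Alternatives were DESeq2's size factors, library size only, no filter on low counts, the DESeq2 1.42.0 test, limma 3.58.1 on log2(FPKM + 1) and log2(FPKM + 0.1), a model of the 4 libraries compared, a term for the replicate number and leaving out each library.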

Additional observations from a re-analysis of the deposited data

How the results depend on the processing

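Over 10 genes, 3 comparisons and 14 alternatives, 386 values kept their side of the threshold, 26 lost the call and 8 gained it, and 0 called values changed direction. Uncalled values of Mycl, Max, Mnt and Mga near 0 took the other sign under some alternatives, such as Max in C-MYC against EV with library size only (-0.05). The count of network genes called in BCR-ABL1 against EV was 4 and became 2 with limma on log2(FPKM + 1) and 2 in the model of the 4 libraries compared; leaving out libraries gave 2 to 5. It ran from 5 to 7 in C-MYC against EV and from 2 to 6 between the oncogenes. The count over the 8 lists in BCR-ABL1 against EV was 12 and became 5 and 4 with limma at pseudocounts of 1 and 0.1, with 1 to 19 when libraries were left out. It ran from 28 to 38 in C-MYC against EV and from 8 to 34 between the oncogenes. Over all genes, 2180 were called in BCR-ABL1 against EV (665 to 2729 without single libraries), 5515 in C-MYC against EV (3329 to 6077) and 2991 between the oncogenes (618 to 4519, and 4538 in the model of 4 libraries). The ratio of Myc to the summed repressors in EV, BCR-ABL1 and C-MYC was 0.0631, 0.209 and 0.599 by FPKM and 1.06, 2.59 and 10.7 per kilobase of exon. The causes of these shifts were not tested.

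Scaling by library size only moved the split of calls: of those in BCR-ABL1 against EV, 19.4% were higher in place of 29.8%, and in C-MYC against EV 32.2% in place of 43.2%, with the median of all genes at -0.19 in place of -0.08. With limma on log2(FPKM + 0.1), the shares were 19.6% and 32.8%. No called network gene changed direction under these scalings, and Mxd3 in BCR-ABL1 against EV was called with library size only (-0.56, adjusted p = 0.0404).

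The labels number the replicates 1 and 2 in each group but do not say that a number marks a shared batch. Differences between replicates 1 and 2 correlated across 10623 genes at 0.417, 0.319 and 0.352 between the groups, with too few numbers to treat as pairing. With a replicate block, 1221 genes were higher and 2003 lower in BCR-ABL1 against EV, 2918 and 3713 in C-MYC against EV, and 2110 and 2168 between the oncogenes. The lists then had 20 genes called in BCR-ABL1 against EV in place of 12, and Mxd3 was called there (-0.49, adjusted p = 0.0326).

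With 2 libraries in each group, the spread rests on few degrees of freedom. In a model that leaves out a library, the lone sample is assumed to vary like the other groups. Counts are relative to the library total, and no spike-in was analysed here, so a change in RNA per cell cannot be seen. The Myc gene on the chromosome cannot be told apart from the vector in C-MYC.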
